A study of Mus musculus with 25 samples.

Results

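The goblet cell mucus genes described here are Muc2, Tff3, Fcgbp, Clca1, Zg16, Agr2, Spdef, Spink4 and Retnlb, 9 of the 57132 genes of the deposited table, chosen by symbol. They were measured by RNA-seq in 25 jejunal libraries from mouse pups that had been divided among 5 feeding groups at postnatal day (PND) 14, with 5 libraries per group. Control pups kept suckling and were taken at PND 21. All other pups were weaned early, at PND 15, either with no supplement named (EW), with 2'-fucosyllactose (EW+2'-FL), with lacto-N-neotetraose (EW+LNnT) or with the pair of them (EW+HMOs). Both supplements are oligosaccharides of human milk, and of the pair 2'-fucosyllactose carries a fucose. The labels give no strain, sex, litter, dose or route, and they give an age at collection for the Control group only, so age and feeding cannot be told apart. Nor do they tie each library to its own animal, and the spread behind the p-values, that between libraries, may be technical in part. Libraries are named by group and the replicate number of the labels, as Control1, Weaned1 (for EW), HMOs1, FL1 and LNnT1.

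Goblet cells are the mucus-secreting cells of the intestinal epithelium. They fold and cross-link a very large mucin in the endoplasmic reticulum, decorate it with O-linked sugars, pack it into granules and release it to form the gel that keeps bacteria away from the cell surface. Muc2 encodes the gel-forming mucin itself, and Fcgbp, Clca1 and Zg16 encode proteins that are secreted with it and found in the gel. Around weaning, when milk gives way to solid food, the mouse small intestine replaces much of its suckling-type epithelium.

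Muc2, Fcgbp, Clca1, Zg16, Tff3 and Agr2 had lower means in all 4 early-weaned groups than in Control, and Zg16 fell in EW+2'-FL to 0.37 of the Control level. Agr2 fell in EW+LNnT, with a log2 difference of -0.81, while its similar difference of -0.78 in EW did not pass the test. EW+LNnT called 10.6% of all genes and EW 0.953%. The other downward differences did not pass either. The calls of Zg16 and Agr2 were lost without any of 6 and 5 single libraries. Spink4 had a mean above Control in EW and EW+2'-FL and below it in the other groups, without passing the test. Retnlb had no count in any Control library and a count in every EW and every EW+HMOs library. No mucus gene passed the test between a supplemented group and EW, or between any 2 supplemented groups.

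Depth was 58.7 to 89.6 M counts per library (M, counts in units of 1e+06), and all 9 genes passed the filter on low counts. Retnlb passed it only through the early-weaned libraries. The jejunal label matched its markers: 7 genes typical of jejunal enterocytes summed to 15500 to 31000 CPM (counts scaled to a library of 1e+06 counts, by TMM) in every library, while 3 markers of colon summed to at most 3.07 CPM and 2 of ileum to at most 4.3 CPM. Libraries FL1, LNnT1 and LNnT2 stood apart from all others on the first principal component of all genes. Transcripts of pancreatic acinar cells made up 0.126% to 0.499% of the counts in LNnT1, LNnT2, Control3, FL5 and Weaned1 and no more than 0.0512% in the other libraries. Y-linked transcripts were found in 1 Control library, 4 EW, 3 EW+HMOs, 4 EW+2'-FL and 2 EW+LNnT libraries, and the Control library that had them, Control2, also held 18438 counts of Xist. For some genes, results are therefore also given without these libraries or with the Y-linked share in the model. Not every such change is given, and losses of list calls with the Y-linked share are named in the closing section on processing. Xist was above 10000 counts in 5 Control, 1 EW, 2 EW+HMOs, 1 EW+2'-FL and 3 EW+LNnT libraries. Sex by these transcripts was thus uneven between Control and the early-weaned groups, and its part in the differences from Control was not tested further.

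Per unit of transcript length, in FPKM (fragments per kilobase, scaled to depth), Zg16 and Tff3 were the most abundant of the 9 genes in every library. Zg16 had a median of 472 FPKM over the 25 libraries (162 to 1010) and Tff3 a median of 374 FPKM (177 to 754). Fcgbp followed at 146 FPKM (60.2 to 274), then Spink4 at 92.1 FPKM (56.6 to 440) and Clca1 at 91.7 FPKM (7.92 to 170), whose ranges overlap in part. Agr2 had a median of 56.5 FPKM (20.8 to 102) and Muc2 of 32 FPKM (9.66 to 65). The transcription factor Spdef, at 4.29 FPKM (0.878 to 5.68), and Retnlb, at 0.482 FPKM (0 to 2.96), were the lowest. Together the 9 genes took up 0.512% ± 0.0658 of all counts in Control (SD, n = 5). The share was 0.34% ± 0.148 in EW and 0.237% ± 0.0363 in EW+2'-FL, and EW+HMOs and EW+LNnT lay between Control and EW+2'-FL at 0.372% ± 0.193 and 0.355% ± 0.182. The 5 EW+2'-FL libraries, at 0.184% to 0.282%, all lay below the lowest Control library at 0.399%, and each of the other early-weaned groups reached into the Control range or above it. In whole jejunum, fewer goblet cells and less RNA per goblet cell cannot be told apart.

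**Figure D1:**
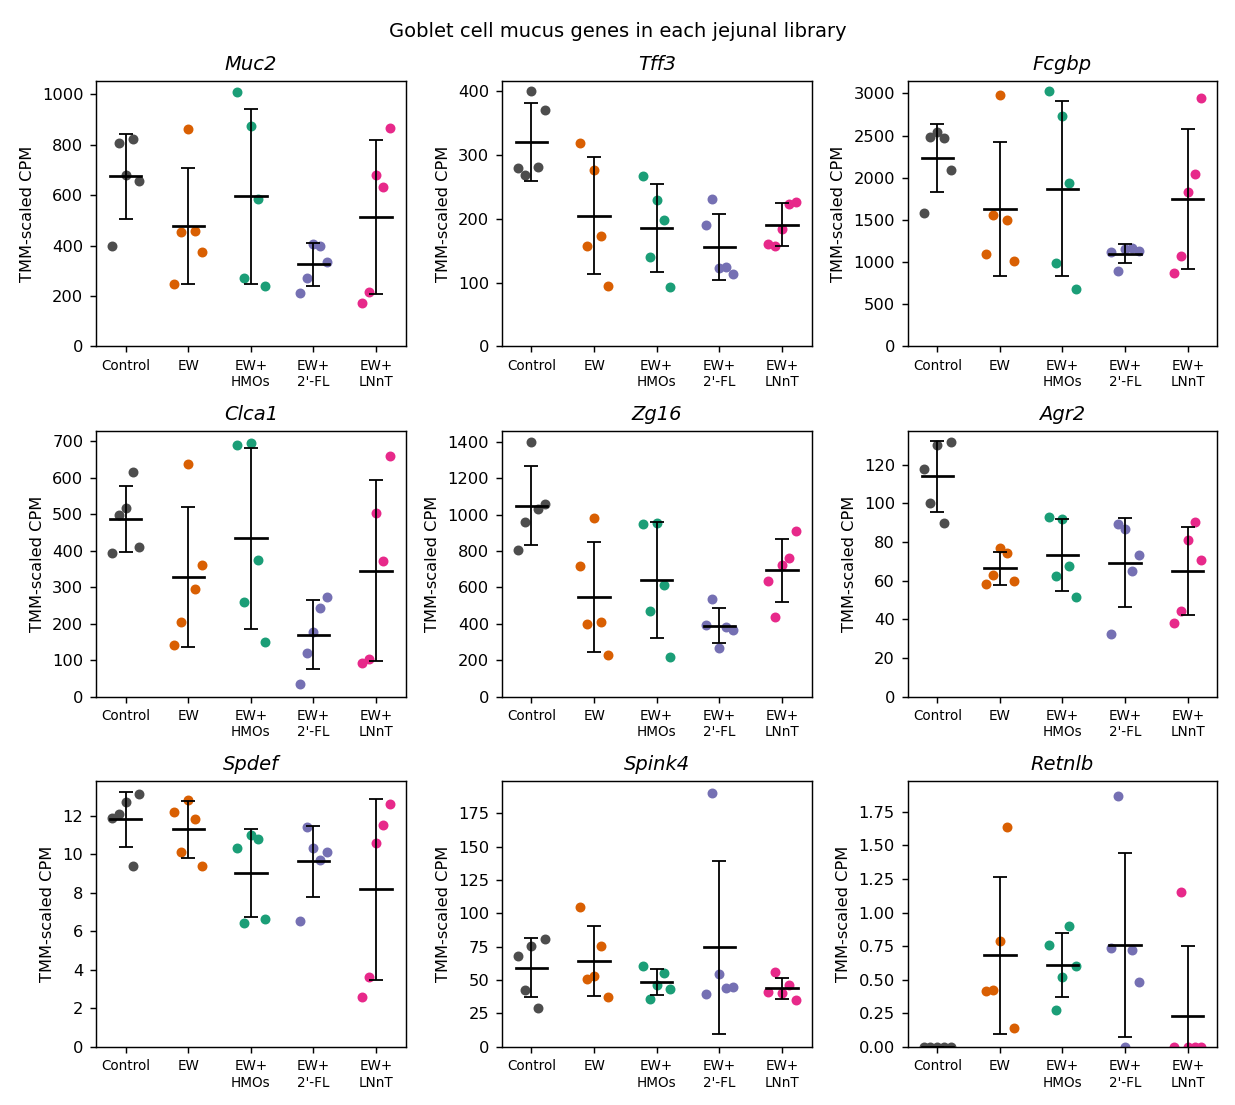
TMM-scaled CPM (y axis, linear, from 0) of each of the 9 mucus genes in each library, by feeding group (x axis). Points are libraries, horizontal lines are group means and bars are 1 SD (n = 5). Agr2 in the 5 EW libraries lies below all 5 Control libraries (4.97% of all genes did so), and Zg16, Tff3, Fcgbp, Clca1 and Agr2 do so in EW+2'-FL (3.66% of all genes).

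Muc2 lies on chromosome 7 (chr7:141276583-141308430, plus strand, GRCm39) and Fcgbp, a large protein with repeated von Willebrand factor D domains, on the same chromosome (chr7:27770661-27820287, plus strand, GRCm39). Because their levels followed each other most closely of all pairs, the 250 bases before the start of each are shown from RefSeq, on its build GRCm38.p6, at chr7:141690090-141690339 for Muc2 and chr7:28070986-28071235 for Fcgbp, plus strand, 5′ to 3′. The reference table held this region for 4 of the 9 genes.
Muc2: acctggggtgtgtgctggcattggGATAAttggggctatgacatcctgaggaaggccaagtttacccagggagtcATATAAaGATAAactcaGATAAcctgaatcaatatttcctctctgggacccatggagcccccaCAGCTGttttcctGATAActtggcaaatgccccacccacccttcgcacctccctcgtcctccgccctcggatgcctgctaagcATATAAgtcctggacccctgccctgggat
Fcgbp: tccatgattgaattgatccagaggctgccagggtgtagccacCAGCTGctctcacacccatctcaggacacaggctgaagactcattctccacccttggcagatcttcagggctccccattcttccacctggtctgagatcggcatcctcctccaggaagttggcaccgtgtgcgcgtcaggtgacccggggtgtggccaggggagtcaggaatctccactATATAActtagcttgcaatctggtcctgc
Capitals mark matches, on either strand, to 4 short motifs. The first, GATAA, is the core bound by GATA factors. An E-box of the kind bound by ATOH1, the factor that specifies secretory cells, is written CAGCTG. For SPDEF itself the core searched was CCGGAT. The last, ATATAA, is a TATA-like run whose letters were chosen after the sequences had been read. CAGCTG occurred in both, from -112 to -107 of the start in Muc2 and from -208 to -203 in Fcgbp, against 13.0% of the 32851 RefSeq promoters of this length. ATATAA stood from -29 to -24 in both, and a further copy stood from -175 to -170 in Muc2, and 9.1% of the promoters held one anywhere. GATAA occurred at 4 places in Muc2 and at none in Fcgbp, and 22.6% of the promoters held it. CCGGAT, found in 4.94% of the promoters, was not in either window. The windows of Agr2 and Spdef, which the reference table also held, had no match to any of the 4 motifs. The part of these motifs in the levels was not tested.

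Muc2 measured 400, 807, 681, 824 and 657 CPM in Control1 to Control5 and 249, 453, 862, 456 and 373 CPM in Weaned1 to Weaned5. In the supplemented groups it measured 1010, 271, 874, 583 and 239 CPM in HMOs1 to HMOs5, 210, 273, 408, 399 and 336 CPM in FL1 to FL5, and 171, 216, 681, 632 and 864 CPM in LNnT1 to LNnT5. The early-weaned libraries split widely: Weaned3, HMOs1, HMOs3 and LNnT5 were above every Control library. Below every one were LNnT1, FL1, LNnT2, HMOs5, Weaned1, HMOs2, FL2, FL5, Weaned5 and, narrowly, FL4 (399 against 400 CPM in Control1). The coefficient of variation was 25.3% in Control and 25.9% in EW+2'-FL but 48.1%, 58.2% and 59.3% in EW, EW+HMOs and EW+LNnT. Against Control, the log2 difference was -0.49 ± 0.42 (SE) in EW (edgeR adjusted p = 0.65), -0.18 ± 0.42 in EW+HMOs (adjusted p = 0.87), -1.05 ± 0.42 in EW+2'-FL (adjusted p = 0.19) and -0.39 ± 0.42 in EW+LNnT (adjusted p = 0.59). All adjusted p-values of single genes here come from edgeR's quasi-likelihood test with Benjamini-Hochberg adjustment over 22131 genes, and a gene was called when its adjusted p was under 0.05. None of the 4 Muc2 differences passed, and without FL1, LNnT1 and LNnT2 the EW+LNnT difference was 0.09.

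Fcgbp and Clca1, a secreted metalloprotease that cleaves Muc2 in the gel (chr3:144709578-144738537, minus strand), had a similar spread over the libraries. Fcgbp averaged 2230 ± 404 CPM in Control (SD, n = 5), 1630 ± 790 in EW, 1100 ± 114 in EW+2'-FL, 1750 ± 832 in EW+LNnT and 1870 ± 1040 in EW+HMOs. Clca1 averaged 486 ± 89.9 CPM in Control, 328 ± 192 in EW, 170 ± 95.5 in EW+2'-FL, 345 ± 248 in EW+LNnT and 433 ± 249 in EW+HMOs. In EW+2'-FL both were below Control without overlap, as held for 3.66% of all genes. Fcgbp ranged from 897 to 1170 CPM against 1580 to 2540 CPM, and Clca1 from 35.8 to 272 CPM against 393 to 615 CPM. The log2 differences were -1.02 ± 0.36 (adjusted p = 0.12) and -1.52 ± 0.55 (adjusted p = 0.14), and neither passed the test. In the other early-weaned groups the differences of these genes from Control lay between -0.57 and -0.17, with adjusted p-values of 0.57 or above. Without FL1, LNnT1 and LNnT2 the EW+LNnT differences, -0.35 for Fcgbp and -0.49 for Clca1, were 0.01 and 0.06. Fcgbpl1, a gene of the same family and a possible taker of shared reads, averaged 23.5 ± 6.36 CPM in Control and fell in EW+HMOs to 9.54 CPM, in EW+2'-FL to 6.38 CPM and in EW+LNnT to 9.63 CPM (log2 differences -1.3, -1.88 and -1.29, adjusted p = 0.039, 0.003 and 0.017). The Fcgbpl1 call in EW+2'-FL held with every single library left out and under all 12 other settings, whereas the call in EW+HMOs was lost without any of 9 libraries (adjusted p up to 0.13) and that in EW+LNnT without Control3, LNnT1 or LNnT2 (up to 0.058).

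Zg16 encodes a lectin-like granule protein that binds the cell wall of Gram-positive bacteria, and it was first described in zymogen granules of the pancreas (chr7:126649328-126686458, minus strand). It measured 808, 960, 1400, 1030 and 1060 CPM in Control1 to Control5, 720, 397, 981, 412 and 228 CPM in Weaned1 to Weaned5, and 951, 470, 952, 613 and 218 CPM in HMOs1 to HMOs5. It measured 393, 536, 267, 382 and 366 CPM in FL1 to FL5 and 638, 438, 723, 764 and 909 CPM in LNnT1 to LNnT5. All EW+2'-FL libraries were below all Control libraries, as held for 3.66% of all genes, and in the other early-weaned groups all but 1 or 2 were. Zg16 fell in EW+2'-FL by 1.43 ± 0.35 on the log2 scale (2.7-fold lower, 95% interval -2.15 to -0.72, adjusted p = 0.026), one of 2 mucus genes called there (the other was Retnlb) while 2.54% of all genes were. The other differences from Control, -0.94 ± 0.34 in EW (adjusted p = 0.21), -0.71 ± 0.34 in EW+HMOs (0.26) and -0.6 ± 0.34 in EW+LNnT (0.27), did not pass. The call in EW+2'-FL was lost when Control3, Control4, Control5, FL1, FL3 or FL5 was left out (adjusted p from 0.013 to 0.084 over all single omissions). Control3 had both the highest Zg16 and the most pancreatic RNA of the Control group; without the 5 libraries over 0.1% pancreatic counts the difference was -1.29 ± 0.4 (adjusted p = 0.096), and with the Y-linked share in the model it was -1.2 ± 0.37 (adjusted p = 0.12). When libraries were scaled to 6 epithelial genes it was -0.94 ± 0.35 (adjusted p = 0.065).

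Tff3 encodes a trefoil peptide secreted with mucus and known for its part in mucosal repair (chr17:31344280-31348620, minus strand). It measured 280, 269, 401, 282 and 371 CPM in Control1 to Control5 and 319, 158, 277, 174 and 94.5 CPM in Weaned1 to Weaned5. It ranged from 93.5 to 268 CPM in EW+HMOs, from 113 to 232 CPM in EW+2'-FL and from 158 to 227 CPM in EW+LNnT. The 15 libraries of the 3 supplemented groups were thus all below the lowest Control library (8.24%, 3.66% and 5.97% of all genes did the same in these 3 comparisons), while Weaned1 and Weaned3 lay within the Control range. The log2 difference from Control was -0.65 ± 0.29 in EW (adjusted p = 0.3), -1.04 ± 0.29 in EW+2'-FL (0.051), -0.75 ± 0.29 in EW+LNnT (0.091) and -0.78 ± 0.29 in EW+HMOs (0.14), and none passed the test.

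Agr2 and Spdef act before secretion. Agr2 encodes a protein of the disulfide isomerase family in the endoplasmic reticulum that mice need to make Muc2 (chr12:36042906-36054086, plus strand), and Spdef an ETS transcription factor of goblet and Paneth cell maturation (chr17:27933326-27947929, minus strand). Agr2 measured 118, 100, 130, 90.1 and 132 CPM in Control1 to Control5, 58.1, 63.1, 76.7, 74.3 and 60 CPM in Weaned1 to Weaned5, and 38.3, 44.3, 80.9, 90.6 and 70.8 CPM in LNnT1 to LNnT5. It ranged from 51.4 to 92.9 CPM in EW+HMOs and from 32.2 to 89.2 CPM in EW+2'-FL. Every EW and EW+2'-FL library was below every Control library, as held for 4.97% and 3.66% of all genes, and in EW+HMOs and EW+LNnT 3 and 4 of 5 were. Agr2 fell in EW+LNnT by 0.81 ± 0.24 on the log2 scale (1.75-fold lower, 95% interval -1.31 to -0.31, adjusted p = 0.035), one of 2 mucus genes called, with Retnlb, in a comparison that called 10.6% of all genes. The differences of -0.78 ± 0.24 in EW (adjusted p = 0.13), -0.64 ± 0.24 in EW+HMOs (0.16) and -0.72 ± 0.24 in EW+2'-FL (0.11) were of much the same size and did not pass. The call in EW+LNnT rested on the libraries that stood apart: without FL1, LNnT1 and LNnT2 the difference was -0.51 ± 0.18 (adjusted p = 0.088). Leaving out LNnT1, LNnT2, Control1, Control3 or Control5 singly also ended it (adjusted p up to 0.1), as did epithelial scaling (-0.6 ± 0.22, adjusted p = 0.067). The call was further lost without the libraries with pancreatic RNA (-0.45 ± 0.27, adjusted p = 0.39) and with the Y-linked share in the model (-0.79 ± 0.26, adjusted p = 0.061). With only the 2 groups compared it was lost as well (-0.8 ± 0.23, adjusted p = 0.054). Without FL1, LNnT1 and LNnT2, the Agr2 differences of -0.78 ± 0.16 in EW and -0.64 ± 0.16 in EW+HMOs passed instead (adjusted p = 0.0052 and 0.016).

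Spdef averaged 11.8 ± 1.45 CPM in Control (SD, n = 5), 11.3 ± 1.48 in EW, 9.62 ± 1.83 in EW+2'-FL, 8.17 ± 4.69 in EW+LNnT and 9.03 ± 2.29 in EW+HMOs. The low values were 2.6 CPM in LNnT1 and 3.62 CPM in LNnT2, and the other 3 EW+LNnT libraries, at 10.6, 11.5 and 12.6 CPM, were within the Control range of 9.39 to 13.1 CPM. The log2 differences from Control ran from -0.53 ± 0.3 in EW+LNnT to -0.07 ± 0.3 in EW, with adjusted p-values from 0.26 to 0.94. For EW the 95% interval was -0.69 to 0.55. The small differences in EW and EW+2'-FL turned upward, to 0.2 and 0.1, when libraries were scaled to 6 epithelial genes.

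Spink4 encodes a small inhibitor of serine proteases made by goblet cells (chr4:40920052-40931395, plus strand). It averaged 59.2 ± 22.2 CPM in Control (SD, n = 5), 64.4 ± 26.4 in EW, 74.4 ± 64.6 in EW+2'-FL, 43.7 ± 8.02 in EW+LNnT and 48.3 ± 9.82 in EW+HMOs. The EW+2'-FL mean rested on FL2, at 190 CPM, where the other 4 libraries were between 39.8 and 54.3 CPM. FL2 also had the highest sum of 8 Paneth cell genes of all libraries, 4600 CPM, and the highest sum of 5 smooth muscle genes, 2720 CPM; their part in the Spink4 level was not tested. Groups overlapped in all comparisons with Control, and the adjusted p-values were 0.47 or above.

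**Figure D2:**
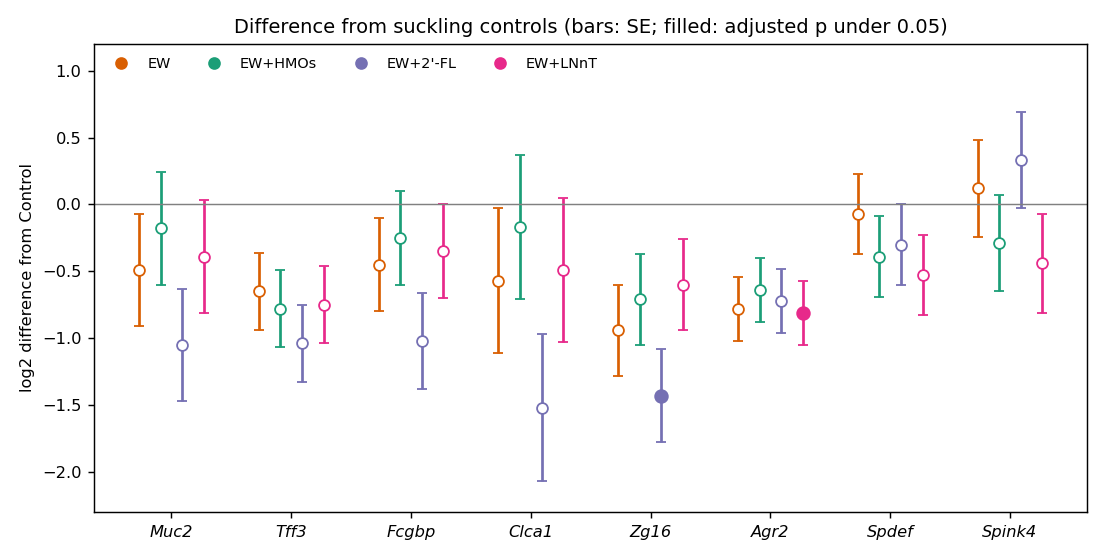
Log2 difference from Control (y axis) in each early-weaned group for 8 mucus genes (x axis), from edgeR; bars are 1 SE and filled points have an adjusted p under 0.05. Most points lie below 0, and the 2 filled ones are Zg16 in EW+2'-FL and Agr2 in EW+LNnT; Retnlb is left out because all 5 Control libraries had no count.

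Retnlb encodes resistin-like molecule beta, a protein that goblet cells secrete and that is known in mice to rise with bacterial colonisation and with type 2 immune responses (chr16:48637219-48639255, plus strand). Its counts were 0 in all 5 Control libraries, which had 68.9 to 86.3 M counts each. They were 26, 38, 67, 156 and 13 in Weaned1 to Weaned5, 61, 22, 44, 74 and 50 in HMOs1 to HMOs5, and 46, 174, 0, 58 and 42 in FL1 to FL5. In EW+LNnT only LNnT2 had any, 80 counts, and LNnT1, LNnT3, LNnT4 and LNnT5 had 0. By group, Retnlb was present in 5 EW, 5 EW+HMOs, 4 EW+2'-FL, 1 EW+LNnT and 0 Control libraries, and the levels were low throughout, at most 1.87 CPM. With Control set at a floor of 3 counts per library (0.0375 CPM), the mean was at least 18.2-fold higher in EW, 16.2-fold in EW+HMOs and 20.3-fold in EW+2'-FL. Such floors cover counting error only.

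Retnlb entered the tested genes only through the early-weaned libraries, and a gene kept in that way has to differ from a Control group at 0, so its p-values against Control are given as a description only. By edgeR the adjusted p was 0.042 in EW+HMOs, 0.029 in EW+2'-FL, 0.039 in EW+LNnT and 0.057 in EW, and the value in EW+LNnT came from LNnT2 alone. Of the 22131 genes tested, 5 (0.0226%) had no count in any Control library and a count in every EW library, and 3.52% and 7.9% lay above Control without overlap in EW and in EW+HMOs. The adjusted p-values moved across the threshold with single libraries: that in EW+HMOs was above it when any of 13 libraries was left out, every Control library among them (0.0048 to 0.11), and that in EW+2'-FL without any Control library or FL1 (0.0039 to 0.078). Without FL1, LNnT1 and LNnT2 they were 0.0033 in EW, 0.0029 in EW+HMOs and 0.0039 in EW+2'-FL. The lung genes Sftpc and Scgb1a1 shared the absence from Control: neither had a count in any Control library, and in EW+HMOs, where each was present in every library, they averaged 0.26 ± 0.132 and 0.318 ± 0.227 CPM, against 0.609 ± 0.237 CPM for Retnlb. In EW they averaged 5.85 ± 12.7 and 4.72 ± 10.3 CPM, with some libraries at 0. The part of RNA from other tissue in the Retnlb counts was not tested. The difference between EW+LNnT and EW, 0.231 against 0.682 CPM, did not pass (exact permutation p = 0.21; edgeR adjusted p = 0.71). The EW+LNnT mean is that of LNnT2 alone. Without LNnT2 the edgeR adjusted p was 0.044 against EW and 0.039 against EW+HMOs. That omission leaves EW+LNnT with no Retnlb count at all, so these values are a description only. Reads shared with the related genes Retnla, Retnlg and Retn could not be checked; Retnlg, the most abundant of them, was at 7.66 ± 1.86 CPM in Control and 4.36 ± 0.732 CPM in EW.

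**Figure D3:**
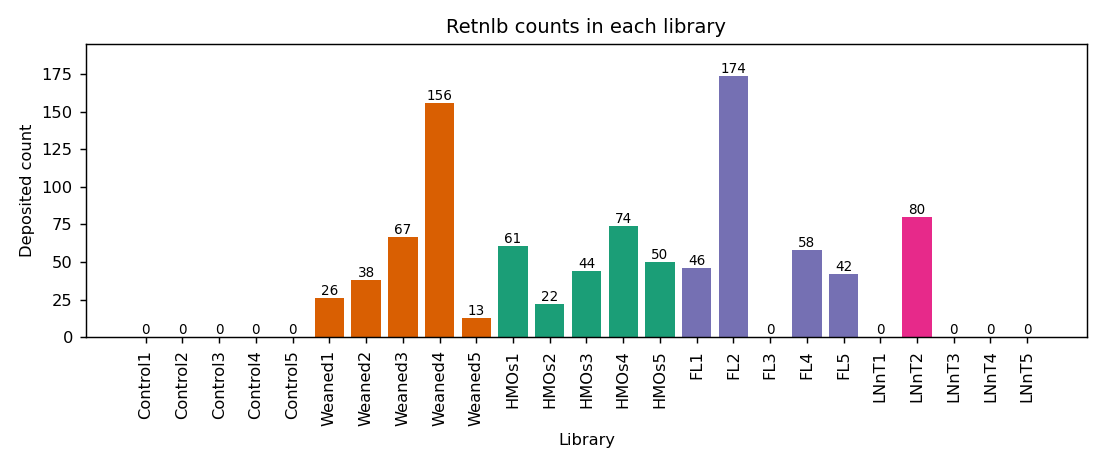
Deposited Retnlb counts (y axis, linear, from 0) in each of the 25 libraries (x axis), coloured by feeding group, with the count above each bar. The 5 Control libraries are at 0, the 5 EW and 5 EW+HMOs libraries are between 13 and 156, and LNnT2 is the only EW+LNnT library above 0.

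As a group, 7 of the 9 genes had a negative log2 difference between EW and Control and the median was -0.49, against a median of 0.02 and 48.2% negative over all genes tested. None of the 9 was called by edgeR, where 0.953% of all genes were. At an unadjusted p under 0.05 there were 4 (Tff3, Zg16, Agr2 and Retnlb), against 14% of all genes. Values of Retnlb against Control, in this and the other counts here, are a description only. DESeq2 called 1 (Retnlb; 3.07% of all genes), limma voom with quality weights called those 4 (21.4% of all genes), and limma on log2(FPKM + 1) called 0 (1.05% of all genes). In EW+HMOs against Control 8 of 9 were negative (52.4% of all genes, median -0.29), and no gene but Retnlb was called, where 1.85% of all genes were. In EW+2'-FL 7 of 9 were negative (45% of all genes; median -1.02), 7 had an unadjusted p under 0.05 against 17.3% of all genes, and 5 lay below Control without overlap (Tff3, Fcgbp, Clca1, Zg16 and Agr2) against 3.66% of all genes. In EW+LNnT 8 of 9 were negative (50.3% of all genes; median -0.49) and 2 were called (Agr2 and Retnlb, against 10.6% of all genes). That lean rested in part on the libraries apart: without FL1, LNnT1 and LNnT2 the EW+LNnT differences were 0.09 for Muc2, 0.01 for Fcgbp, 0.06 for Clca1 and -0.05 for Spdef, while Tff3, Zg16 and Agr2 stayed at -0.61, -0.41 and -0.51, and neither call remained. These comparisons share the Control libraries. Scaling to 6 epithelial genes moved the median of all genes from 0.02 to 0.3 in EW, from 0.05 to 0.49 in EW+2'-FL and from 0 to 0.27 in EW+LNnT, and left the differences of Muc2, Tff3, Fcgbp, Clca1, Zg16 and Agr2 from Control negative in all 4 groups. Many of them became smaller: Tff3 in EW+2'-FL went from -1.04 to -0.51 and Agr2 there from -0.72 to -0.33, Muc2 in EW went from -0.49 to -0.25, and neither Zg16 in EW+2'-FL nor Agr2 in EW+LNnT was called. Over all 5 groups at once edgeR called none of the 9 (3.74% of all genes), with the smallest adjusted p for Zg16 at 0.084 and Retnlb at 0.093. DESeq2 and limma voom each called Tff3, Zg16, Agr2 and Retnlb there, with 15.4% and 27.5% of all genes called.

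The supplements were compared with EW to ask whether they moved mucus gene levels of early-weaned pups. None of the 9 genes passed edgeR's test in EW+HMOs, EW+2'-FL or EW+LNnT against EW, none had an unadjusted p under 0.05, and DESeq2, limma voom and limma on FPKM called none. The background was 0%, 0% and 0.172% of all genes called. The median log2 difference of the 9 genes from EW was -0.39 in EW+2'-FL, -0.03 in EW+LNnT and 0.14 in EW+HMOs. Muc2, for example, differed from EW by 0.31 in EW+HMOs (95% interval -0.56 to 1.18), by -0.56 in EW+2'-FL (-1.43 to 0.31) and by 0.1 in EW+LNnT (-0.77 to 0.97). The most negative well-measured difference was that of Clca1 in EW+2'-FL, -0.95 ± 0.54 (interval -2.07 to 0.17, adjusted p = 1).

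Among the supplemented groups, which received the fucosylated sugar, the other sugar or both, none of the 9 genes passed edgeR's test in any of the 3 pairs, where 0%, 0% and 0.416% of all genes were called. DESeq2, limma voom and limma on FPKM called none of the 9 either. The labels give no dose, so the doses of the 3 arms could not be set side by side. At an unadjusted p under 0.05 there were 2 genes between EW+2'-FL and EW+LNnT, 3 between EW+HMOs and EW+2'-FL and 0 between EW+HMOs and EW+LNnT, against 8.51%, 10.7% and 13.5% of all genes. Between EW+2'-FL and EW+LNnT these were Zg16, with a log2 difference of -0.84 ± 0.34 (95% interval -1.54 to -0.13, adjusted p = 0.52), and Spink4, at 0.77 ± 0.37 (0.01 to 1.52, adjusted p = 0.58), the latter resting on FL2. Between EW+HMOs and EW+2'-FL they were Clca1, at 1.35 ± 0.55 (0.22 to 2.48, adjusted p = 0.39), Fcgbp, at 0.77 ± 0.35 (0.04 to 1.5, adjusted p = 0.44), and Zg16, at 0.72 ± 0.34 (0.02 to 1.43, adjusted p = 0.45). Muc2 differed by -0.66 ± 0.42 between EW+2'-FL and EW+LNnT (-1.53 to 0.21) and by 0.87 ± 0.42 between EW+HMOs and EW+2'-FL (0 to 1.74). The gel genes were thus lowest on average in EW+2'-FL, and no difference from another supplemented group passed the test after adjustment over all genes tested.

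**Figure D4:**
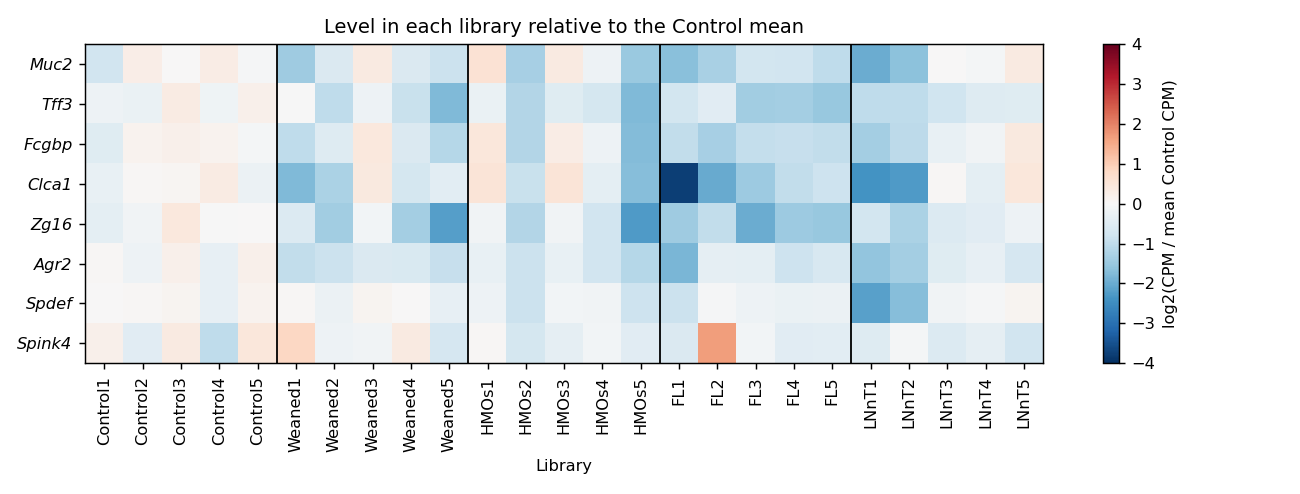
Log2 ratio of each library's TMM-scaled CPM to the Control mean (colour, from -4 to 4) for 8 mucus genes (rows) in the 25 libraries (columns, groups divided by lines). Columns Weaned3, HMOs1, HMOs3 and LNnT5 are near or above the Control mean for Muc2, Fcgbp and Clca1, LNnT1, LNnT2 and FL1 are far below it for Clca1, and FL2 is high for Spink4.

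The wide spread within groups was shared between genes. Each library's deviation from its group mean (log2 CPM) was compared for the 36 pairs of genes over 25 libraries, with p-values from 100000 permutations within groups, which cannot go below 1e-05, and adjustment over the 36 pairs. Muc2 and Fcgbp, whose upstream sequences are shown above, moved together most closely, with Pearson's r = 0.93 (permutation p = 2e-05, adjusted 0.00018) and Spearman's rho = 0.94 (p = 1e-05, adjusted 0.00012). Leaving out the 2 libraries farthest from the median gave r = 0.92, and leaving out FL1, LNnT1 and LNnT2 gave 0.95. Muc2 and Clca1 had r = 0.88 and rho = 0.9 (permutation p = 1e-05 for each, adjusted 0.00018 and 0.00012; r = 0.85 without the 2 farthest). A second pair was Tff3 and Zg16, at r = 0.91 and rho = 0.89 (permutation p = 1e-05 for each; r = 0.89 without the 2 farthest), and one more Agr2 and Spdef, at r = 0.81 and rho = 0.82 (p = 2e-05 for each; r = 0.79). Links between genes of different pairs ranged from close to weak. Clca1 with Agr2 gave r = 0.78 and rho = 0.66 (permutation p = 0.0013 and 0.0041, adjusted 0.0059 and 0.012; r = 0.65 without the 2 farthest), Muc2 with Spdef r = 0.77 and rho = 0.74 (permutation p = 0.0015 and 0.0027, adjusted 0.0059 and 0.0099; r = 0.71), and Fcgbp with Zg16 r = 0.74 and rho = 0.69 (permutation p = 0.00062 and 0.0015, adjusted 0.0037 and 0.0075; r = 0.6). These are as close as Fcgbp with Clca1, at r = 0.74 and rho = 0.79 (permutation p = 0.00012 and 5e-05, adjusted 0.00086 and 0.00036; r = 0.69). Muc2 with Tff3 gave r = 0.38 and rho = 0.36 (permutation p = 0.088 and 0.097, adjusted 0.15 and 0.15; r = 0.24 without the 2 farthest), and Clca1 with Tff3 r = 0.16 and rho = 0.16 (p = 0.49 for each; r = 0.34). In all, 18 of the 36 pairs had an adjusted p under 0.05 for r. None of the 8 pairs with Retnlb was among them, and of the 8 with Spink4 only that with Tff3 (r = 0.56, rho = 0.53, permutation p = 0.0043 and 0.0099, adjusted 0.011 and 0.024; r = 0.44 without the 2 farthest). The deviations share library, depth and the amount of epithelium sampled, whose part in these correlations was not tested.

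**Figure D5:**
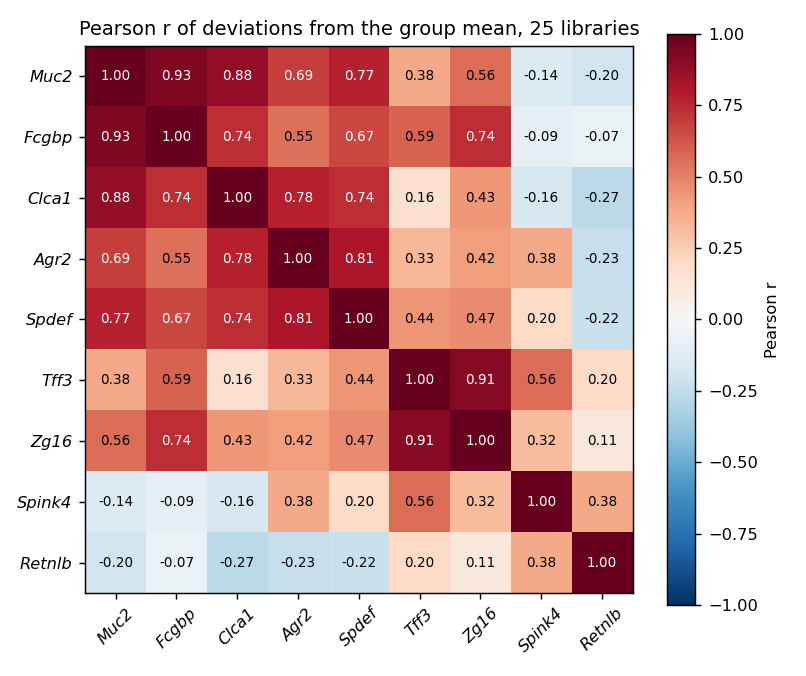
Pearson's r (colour and number) between the deviations of 2 genes from their group means in log2 CPM, for all pairs of the 9 mucus genes over 25 libraries. Pairs among Muc2, Fcgbp and Clca1 lie at 0.74 to 0.93 and Tff3 with Zg16 at 0.91, other pairs such as Clca1 with Agr2 (0.78) and Muc2 with Spdef (0.77) are also high, and the rows of Spink4 and Retnlb stay at 0.56 or below.

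Of 13495 other genes with a mean of at least 1 CPM, those most like Muc2 over the 25 libraries were Ano7 (r = 0.95), Bcas1 (0.89), Sytl2 (0.88), Fer1l6 (0.87) and Kcnk6 (0.87). Those most like the mean of the 9 standardised mucus genes were Tpsg1 (0.9), Hepacam2 (0.86), Tango2 (0.86), Proc (0.84) and Fcgbpl1 (0.84). Bcas1, Sytl2 and Tpsg1 belong to the list of 12 further goblet cell genes. Without FL1, LNnT1 and LNnT2 these correlations ranged from 0.77 for Hepacam2 and Tango2 to 0.92 for Ano7. They are descriptions over libraries that share groups and depth.

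The 12 further goblet cell genes leaned the same way as the mucus genes with few calls. Their median log2 difference from Control was -0.34 in EW, -0.57 in EW+2'-FL, -0.46 in EW+LNnT and -0.54 in EW+HMOs, where the medians of all genes lay between -0.03 and 0.05. None was called in EW or EW+HMOs, where 0.953% and 1.85% of all genes were. In EW+2'-FL 1 was called and in EW+LNnT 2, against 2.54% and 10.6% of all genes. Bcas1 fell in EW+2'-FL, from 15.4 ± 1.43 to 6.68 ± 1.48 CPM (log2 difference -1.21 ± 0.31, adjusted p = 0.035). In EW+LNnT Tpsg1, a tryptase, fell from 11 ± 1.45 to 5.01 ± 3.27 CPM (-1.13 ± 0.35, adjusted p = 0.04) and Bace2, a membrane protease, from 8.32 ± 1.71 to 5.26 ± 0.564 CPM (-0.66 ± 0.2, adjusted p = 0.04). The Bcas1 call was lost without any of 8 single libraries, each Control library among them (adjusted p up to 0.096), and the calls of Tpsg1 and Bace2 without any of 7 each, LNnT1 and LNnT2 among them (up to 0.1 and 0.11). Scin, the most abundant of the list, was at 243 ± 46.1 CPM in Control and 268 ± 76.9 CPM in EW (adjusted p = 0.85), and Guca2a, which encodes guanylin, at 92.9 ± 17.2 and 74.4 ± 54.4 CPM (adjusted p = 0.69).

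Of 15 genes of mucin O-glycosylation, Gcnt3, the enzyme that branches mucin sugar chains, rose in all 4 early-weaned groups. It went from 21 ± 1.23 CPM in Control (SD, n = 5) to 37.2 ± 9.18 in EW, 47.3 ± 10.9 in EW+2'-FL, 33.3 ± 8.77 in EW+LNnT and 60.8 ± 12.5 in EW+HMOs. The log2 differences were 0.82 ± 0.18, 1.17 ± 0.18, 0.67 ± 0.18 and 1.53 ± 0.19 (adjusted p = 0.027, 9e-04, 0.023 and 5e-05). The calls in EW+HMOs and EW+2'-FL held in every repeat, and those in EW and EW+LNnT were lost without any of 7 and 4 single libraries (adjusted p up to 0.1 and 0.087). Gcnt3 was also higher in EW+HMOs than in EW+LNnT by 0.87 ± 0.18 (adjusted p = 0.035), a call lost without any HMOs library, LNnT1 or LNnT3 (up to 0.13). Against EW itself its difference of 0.71 ± 0.18 in EW+HMOs did not pass (adjusted p = 0.7). St3gal1, a sialyltransferase, fell from 102 ± 21 CPM in Control to 62.6 ± 11.7 in EW+2'-FL (-0.7 ± 0.17, adjusted p = 0.027) and 70.6 ± 8.86 in EW+LNnT (-0.53 ± 0.17, adjusted p = 0.047). C1galt1c1, the chaperone of the enzyme that makes the core 1 sugar, fell in EW+LNnT from 37.5 ± 1.08 to 27.6 ± 5.54 CPM (-0.44 ± 0.14, adjusted p = 0.039), a call lost without any of 8 single libraries (up to 0.12) and without FL1, LNnT1 and LNnT2. The St3gal1 calls were lost without any of 4 libraries in EW+2'-FL and of 18 in EW+LNnT (up to 0.095 and 0.14). The medians of the list were within 0.13 of 0 in all 4 groups.

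The 16 genes of folding and stress signalling in the endoplasmic reticulum, the compartment of Agr2, had calls in the downward direction only. Their summed level was 1680 to 1940 CPM in Control and 1320 to 1470 CPM in EW, without overlap. It was 1360 to 1640, 1270 to 1670 and 1350 to 1760 CPM in EW+HMOs, EW+2'-FL and EW+LNnT. Hspa5 and Pdia3 made up much of the Control sum, at means of 522 and 525 CPM. The median log2 difference of the 16 genes between EW and Control was only -0.12, against 0.02 for all genes. For EW+LNnT that median was -0.25, and for each of the other supplemented groups it was -0.19. In EW 3 of 16 fell: the chaperone Hspa5 from 522 ± 41.7 to 318 ± 34.8 CPM (-0.72 ± 0.17, adjusted p = 0.035), the disulfide isomerase Pdia3 from 525 ± 35.6 to 391 ± 25.4 CPM (-0.43 ± 0.1, adjusted p = 0.031) and Sdf2l1 from 19.4 ± 3.91 to 11.5 ± 2.62 CPM (-0.75 ± 0.18, adjusted p = 0.044). Hspa5 and Sdf2l1 (2 of 16) fell in EW+HMOs, where 1.85% of all genes were called, against 0.953% in EW. Those 2 calls were lost without any of 19 and 14 single libraries. Only Pdia3 (1 of 16) fell in EW+2'-FL, against 2.54% of all genes. That call was lost without any of 9 libraries and under 9 of 12 other settings, and its direction changed in 1 repeat. Pdia3, Pdia6 and Sdf2l1 (3 of 16) fell in EW+LNnT, against 10.6% of all genes. The Sdf2l1 call in EW+LNnT was lost without any of 6 libraries. Pdia6 there went from 152 ± 17.1 to 85.9 ± 18.8 CPM (-0.82 ± 0.21, adjusted p = 0.018), lost without any of 4 libraries (up to 0.055). These genes also serve other secretory cells, acinar cells included. The EW calls were each lost without any of 8 or more single libraries (adjusted p up to 0.18) and under epithelial scaling, while that of Pdia3 in EW+LNnT held with every single library left out (0.004 to 0.047) and was lost under epithelial scaling and without the libraries with pancreatic RNA.

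Genes around the mucus gave few further calls, where 1.85% of all genes were called in EW+HMOs and 10.6% in EW+LNnT. Of 8 tested genes of mucus release and bicarbonate secretion, Slc4a4, a sodium bicarbonate cotransporter, rose from 72.4 ± 11.4 CPM in Control to 124 ± 15.2 in EW+HMOs (0.78 ± 0.2, adjusted p = 0.045) and 119 ± 10.9 in EW+LNnT (0.71 ± 0.2, adjusted p = 0.027). Those calls were lost without any of 16 and 5 single libraries (adjusted p up to 0.15 and 0.089). Cftr, the chloride channel, was at 108 ± 14.8 CPM in Control and 153 ± 36.3 CPM in EW (adjusted p = 0.39). Of 12 transcription factors and Notch genes of the secretory lineage, only Foxa1 was called, upward in EW+LNnT from 8.2 ± 0.544 to 13.4 ± 6.23 CPM (0.71 ± 0.22, adjusted p = 0.045), and this was lost without any of 19 libraries (up to 0.19). Of 6 membrane-bound mucins and related proteins of the brush border, Muc17 rose in EW+HMOs from 2470 ± 701 to 4850 ± 857 CPM (0.97 ± 0.26, adjusted p = 0.049), a call lost without any of 17 libraries (up to 0.16). Muc13, the next most abundant mucin of that list, was at 1900 ± 368 CPM in Control and 1870 ± 193 CPM in EW (adjusted p = 0.97).

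Beside Retnlb, the genes of type 2 and interleukin-22 signalling were examined. The cytokines were barely detected: Il13 had no count in 21 of 25 libraries and at most 6 counts, Il22 none in 21 and at most 4, Il25 none in 16 and at most 16, and Il4 and Il5 reached 0.389 and 0.454 CPM. Of the 14 genes tested none was called in EW or EW+HMOs. In EW+2'-FL and EW+LNnT 1 each was called, against 2.54% and 10.6% of all genes. Il13ra1, a receptor chain for interleukin-13, fell in EW+2'-FL from 131 ± 24.9 to 82.3 ± 9.89 CPM (-0.68 ± 0.16, adjusted p = 0.02), lost without Control3 or Control4 (up to 0.075). Il4ra, the chain it pairs with, rose in EW+LNnT from 58.7 ± 5.66 to 96.2 ± 29.9 CPM (0.71 ± 0.19, adjusted p = 0.02), lost without any of 5 libraries, LNnT2 and LNnT3 among them (up to 0.06).

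Paneth cells, the other granule-secreting cells of the crypt, served as a comparison in the same tissue. Of 8 Paneth genes 3 rose in EW, where 0.953% of all genes were called in either direction. Among them were Pla2g2a, a secreted phospholipase, from 4.81 ± 1.56 to 14.3 ± 5.36 CPM (1.57 ± 0.26, adjusted p = 0.0024), and Mmp7, which processes defensins, from 13.1 ± 5.49 to 33.2 ± 10.4 CPM (1.35 ± 0.32, adjusted p = 0.039). The third was the defensin Defa22 (1.57 ± 0.35, adjusted p = 0.027). Their median log2 difference from Control was 0.76, against -0.49 for the mucus genes, and whether these differ was not tested. The Pla2g2a call in EW held in every repeat, that of Mmp7 was lost without any of 9 single libraries (adjusted p up to 0.14) and that of Defa22 without any of 5 (up to 0.077). Of the other lists, Weaned3, the EW library highest in Muc2, Fcgbp, Clca1 and Zg16, was far the highest in lung transcripts (4 genes summing to 61.7 CPM, against 0.256 to 1.87 CPM in the other libraries). It was also the one EW library without Y-linked transcripts above 0.005% of counts. The part of either in its mucus gene levels was not tested.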

How the data were processed

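Jejunal poly(A) RNA with an RNA integrity number above 7 was made into strand-marked libraries and read in pairs, per the labels' protocols. The submitters' processing notes name cutadapt 1.9, HISAT2 2.2.1, StringTie 2.1.6, DESeq2, edgeR and the GRCm39 build, without roles. How reads of related genes were assigned is unknown. The authors deposited whole-number counts per gene, not normalized, and FPKM values beside the same counts, which are per kilobase and scaled to depth.

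From the counts, edgeR 4.0.16 (R 4.3.3) fitted 1 mean per group over all 25 libraries, with TMM scaling, filterByExpr by group at a minimum count of 10 (22131 of the 35723 genes with a count were kept), a robust quasi-likelihood test and Benjamini-Hochberg adjustment. Depth was 58.7 to 89.6 M counts per library. Levels are CPM scaled by TMM. Library replicate correlations (Spearman) were 0.924 to 0.983, and no 2 libraries of a group agreed within sampling noise (chi-square per degree of freedom 56.5 or more over genes with at least 100 counts). FPKM gave levels per length and, on log2(FPKM + 1) and log2(FPKM + 0.1) with limma 3.58.1, an alternative that understates changes of low genes. Other alternatives were DESeq2 1.42.0, DESeq2 size factors, scaling to 6 epithelial genes, no filter, limma voom with quality weights, a replicate block, the Y-linked share, only the 2 groups compared, omission of libraries that stood apart or held pancreatic RNA, and omission of each library. The scripts were tested on simulated counts with 200 changed genes.

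All 9 genes are given in every comparison. From each fixed list up to 4 called genes are named, smallest p first, and for EW against Control the most abundant; the genes most like Muc2 and the mean were taken by Pearson's r. The members and lists were chosen with earlier results of these data known. Correlations used Python 3.11.15 and scipy 1.17.1. Counting floors used 3 counts. Promoter sequences came from RefSeq.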

Additional observations from a re-analysis of the deposited data

Results flagged for a closer look

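In 44 groups of 5 libraries checked, 4 single libraries lay far from the rest of their group by Dixon's criterion, and chance alone flags about 1 group in 20. Fcgbp measured 2980 CPM in Weaned3, where the other EW libraries were between 1010 and 1560 CPM. Fcgbp measured 897 CPM in FL2, below the other EW+2'-FL libraries at 1120 to 1170 CPM, which were unusually close together. Spink4 measured 190 CPM in FL2, where the others were between 39.8 and 54.3 CPM. Retnlb measured 1.15 CPM in LNnT2 and had no count in the other 4 EW+LNnT libraries. The causes were not tested.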

How the results depend on the processing

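The count of mucus genes called depended on the setting in the comparisons with Control. These counts include Retnlb, whose values against Control are a description only. Over the 12 settings other than single omissions, the number of all genes called moved as well. It ran from 57 to 4734 for EW, 167 to 5184 for EW+HMOs, 123 to 3397 for EW+2'-FL and 261 to 3531 for EW+LNnT. For EW, DESeq2 called 3.07% and limma voom 21.4% of all genes. Gains and losses of mucus genes are therefore not read as results about them. For EW, 0 were called in the reported fit; DESeq2, limma on log2(FPKM + 0.1), the fit with the replicate block and the fit without the libraries with pancreatic RNA each called 1, the fit of only the 2 groups and that without FL1, LNnT1 and LNnT2 called 2, and limma voom called 4. For EW+HMOs, 1 was reported; epithelial scaling, no filter and limma on log2(FPKM + 1) called 0, the fit without the 3 libraries apart called 2, and limma voom and the fit of only the 2 groups called 3. For EW+2'-FL, 2 were reported; epithelial scaling, no filter, limma on log2(FPKM + 1), the Y-linked share and the fit without pancreatic RNA called 1, the replicate block called 3 (Zg16, Retnlb and Tff3, the last at adjusted p = 0.046), and DESeq2 and limma voom called 4. For EW+LNnT, 2 were reported; the fits without the 3 libraries apart and without pancreatic RNA called 0, and epithelial scaling, no filter, limma voom, both limma fits on FPKM, the replicate block, the Y-linked share and only the 2 groups called 1. Without the 3 libraries apart, EW+LNnT against EW and EW+HMOs against EW+LNnT each gained 1 call, Retnlb, lower in EW+LNnT, where the reported count was 0. That omission, like that of LNnT2 alone, leaves EW+LNnT with no Retnlb count, so both gains are a description only. For any difference among the 5 groups (0 reported), limma on log2(FPKM + 0.1) and the fit without pancreatic RNA called 1, that without the 3 libraries apart 2, and DESeq2 and limma voom 4. Leaving out 1 library at a time gave 0 to 1 calls for EW, 0 to 1 for EW+HMOs, 0 to 3 for EW+2'-FL and 0 to 2 for EW+LNnT against Control, 0 to 1 for EW+LNnT against EW, 0 to 1 for EW+HMOs against EW+LNnT and 0 to 1 over the 5 groups. In the other 4 pairs of groups the count stayed at 0 in every repeat. With the Y-linked share in the model, the calls of Bcas1, Tpsg1, Bace2, St3gal1, C1galt1c1, Hspa5, Sdf2l1, Foxa1, Muc17, Il13ra1, Mmp7 and Defa22 were lost. So were those of Pdia3 in EW and EW+2'-FL, and of Slc4a4 and Fcgbpl1 in EW+HMOs. Several list calls were also lost without the libraries with pancreatic RNA, among them those of Hspa5, Pdia3 and Defa22 in EW. The cause of these changes was not tested.

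Over all genes, the number called ran from 58 to 530 for EW against Control with 1 library left out (211 reported), and up to 4734 under limma voom; for EW+HMOs 169 to 1141 and up to 5184 (410 reported), for EW+2'-FL 191 to 1452 and up to 3397 (563), and for EW+LNnT 700 to 3310 and up to 3531 (2348). Epithelial scaling turned the split of EW calls from 98 higher and 113 lower to 184 higher and 21 lower, and that of EW+2'-FL from 236 and 327 to 3263 and 134. Of 3328 repeats of 90 single-gene differences, 3191 kept their side of the threshold and their direction within the spread, 41 gained a call, 56 lost one, 40 moved across 0 without a call, and 0 reversed a call. The equal replicate numbers do not pair the samples, since same-numbered libraries deviated with correlations from -0.27 to 0.5 and no comparison had all 5 above 0.1; the replicate block therefore stands here only. At these depths counting error is small for 8 of the genes, and for Retnlb, at 0 to 174 counts, it is not.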
